A study of Mus musculus with 12 samples.

Results

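The collagen chain genes of the mouse were followed in eye organoids whose lactate dehydrogenase was inhibited. They were taken as every protein-coding gene whose symbol is Col, a number, a and a number, which gave 44 of the 54232 gene IDs in the count tables. By the kind of collagen their chains build they were grouped as 11 fibrillar genes, 8 basement membrane genes, 9 FACIT genes (fibril-associated collagens with interrupted triple helices) and 16 other genes. The organoids were grown from mouse embryonic stem cells of the Rax-GFP line, heterozygous for a GFP knock-in at Rax, and were collected at day 7. LDHi+lactate organoids received GNE-140, an inhibitor of lactate dehydrogenase, and 25 mM sodium L-lactate. LDHi organoids received 20 µM GNE-140 alone for 3 days, and control organoids received neither. Bulk RNA of whole organoids was sequenced from 4 libraries per group, numbered 1 to 4, and the study states 4 independent experiments. All groups derive from the same stem cell line, and Matrigel, an extract of basement membrane proteins, was part of the culture in all of them. The labels state 12 h of lactate before GNE-140, whereas the study's methods describe lactate given together with GNE-140. The labels also name the cell type eye organoid for replicates 1 and 2 and retina progenitors for replicates 3 and 4.

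Collagens are secreted proteins in which chains wind around each other as a triple helix, and some types combine chains from more than 1 gene. Fibrillar collagens form the fibres of connective tissue, cartilage and the vitreous, type IV collagen forms the sheet of every basement membrane, and FACIT collagens sit on the surface of fibrils. In the developing eye the optic vesicle rests on a basement membrane and is surrounded by periocular mesenchyme, the tissue that supplies most interstitial collagen.

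Total counts were 29255114 to 42489921 per LDHi+lactate library, 22174002 to 46881759 per LDHi library and 25209097 to 48271386 per control library. The eye field genes Rax, Six3 and Six6 were present in every library. Six3 had 63.99 to 121.8 CPM in LDHi+lactate, 27.97 to 51.61 CPM in LDHi and 55.5 to 111.2 CPM in control libraries. CPM relate the counts to the library size after TMM scaling. Control replicate 4 stood apart from the other control libraries. Its 11 markers of periocular and other mesenchyme summed to 435.5 CPM, against 188.2 to 248.3 CPM in the other control libraries, and it was the lowest control library for Rax, Six3 and Six6. Results that turn on it are given below with and without it.

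The start sites of the most abundant chains and of the chain with the most stable difference are shown first, since the tables count reads per gene and not per start. Col4a1 (ENSMUSG00000031502, mm10, minus strand, 11198423 to 11312826 on chromosome 8) and Col4a2 (ENSMUSG00000031503, plus strand, 11312805 to 11449287) encode the chains of the common type IV collagen and lie head to head. Their first exons share 22 bases, which are in capitals in the stretch chr8:11312801-11312830 (plus strand, RefSeq, GRCm38.p6).
Col4a1 and Col4a2 starts: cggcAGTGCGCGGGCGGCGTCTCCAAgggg
Reads from these 22 bases could not be assigned to a gene if counting ignored the strand, which the sources used here do not say.

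Col9a1 (ENSMUSG00000026147, plus strand, 24177610 to 24252684 on chromosome 1) encodes the alpha 1 chain of type IX collagen, the FACIT collagen of type II fibrils in cartilage and vitreous. RefSeq gives it starts at 24177610 and 24195203, which lie 17593 bases apart. A short Col9a1 transcript from an inner start is known from the chick cornea. The 250 bases before each start, at chr1:24177360-24177609 and chr1:24194953-24195202 (plus strand, GRCm38.p6), are printed with matches in capitals to 6 motifs searched on both strands.
Col9a1, outer start: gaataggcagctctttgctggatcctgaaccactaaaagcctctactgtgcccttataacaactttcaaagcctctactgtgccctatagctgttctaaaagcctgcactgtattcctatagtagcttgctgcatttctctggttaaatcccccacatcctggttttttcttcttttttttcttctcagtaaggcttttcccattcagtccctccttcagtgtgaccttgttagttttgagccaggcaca
Col9a1, inner start: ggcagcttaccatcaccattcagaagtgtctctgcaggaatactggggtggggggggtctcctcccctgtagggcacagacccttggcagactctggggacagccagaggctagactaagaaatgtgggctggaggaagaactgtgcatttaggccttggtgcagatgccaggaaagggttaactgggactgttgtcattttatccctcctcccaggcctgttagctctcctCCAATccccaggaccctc
The outer window held none of them, and the inner window held CCAAT at bases 233 to 237. CCAAT was found in 33.8% of the 32851 RefSeq windows of this length, TATAAA in 12.4%, GGGCGG in 32.7%, ACAAAG in 16.5%, TAATTA in 4.84% and CACGTG in 6.02%. Of the 44 collagen genes 35 had at least 1 window, 38 windows in all, of which 13 held CCAAT (34.2%) and 22 held GGGCGG (57.9%). Col12a1, Col14a1, Col1a1, Col22a1, Col26a1, Col2a1, Col4a3, Col5a2 and Col9a3 had none in the table.

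Type IV collagen made up most of the collagen RNA of the organoids. Levels were compared between genes per length, as CPM per kilobase of exon. Over the 12 libraries Col4a1 averaged 248.5 and Col4a2 151.8 on this scale, followed by Col18a1 at 73.1, a basement membrane proteoglycan collagen that releases endostatin, Col9a1 at 23.9 and Col2a1 at 23.1. Col4a1 and Col4a2 together held 66.6% to 77.9% of the summed collagen level per length in LDHi+lactate libraries, 62.9% to 76.9% in LDHi and 36.7% to 75.3% in control libraries. The control share was 55.8% to 75.3% without control replicate 4. By CPM, without regard to length, the 44 genes made up 0.361% to 0.569% of the TMM-scaled library size in LDHi+lactate, 0.279% to 0.426% in LDHi and 0.356% to 0.559% in control libraries. These ranges overlapped between all groups, while within each of the 4 replicate numbers the share was lower in LDHi than in control and higher in LDHi+lactate than in LDHi.

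**Figure D1:**
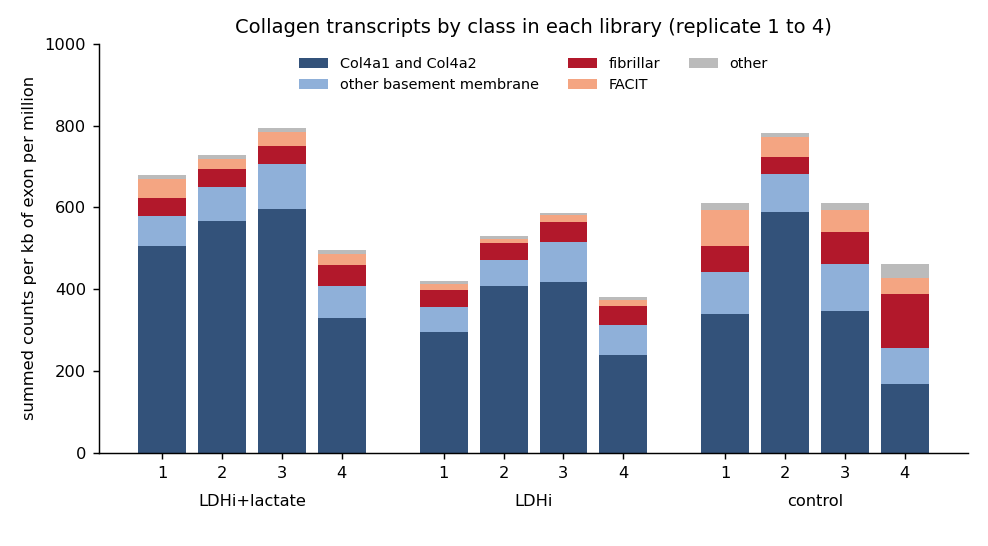
Summed CPM per kilobase of exon of the collagen genes in each library, split by class, for LDHi+lactate, LDHi and control organoids (axis from 0; replicates 1 to 4 from left to right). Col4a1 and Col4a2 form the largest part of every bar, and the fibrillar part is largest in control replicate 4, at 131.2.

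Collagen genes of several classes were lower in LDHi organoids, with log2 fold changes down to -4.76. The abundant type IV chains Col4a1 and Col4a2 were not called. Of the 44 genes, 40 passed the filter on low counts. In LDHi against control organoids 11 of these 40 fell (27.5%) and 0 rose, by edgeR's quasi-likelihood test at an adjusted p under 0.05 (Benjamini-Hochberg over all 17721 genes). Of all genes tested, 2.18% fell and 0.909% rose. Those that fell were Col1a1, Col1a2, Col3a1 and Col24a1 among the fibrillar genes, Col9a1 and Col9a3 among the FACIT genes, and Col6a3, Col7a1, Col8a1, Col23a1 and Col26a1 among the others. No basement membrane gene was called in this fit, although all 7 tested had negative log2 fold changes. With the replicate number as a block, 22 fell (55%) and 1 rose, among them the same 11, while 10.1% of all genes fell and 9.85% rose. The 22 were 6 of 11 fibrillar, 4 of 7 basement membrane, 3 of 8 FACIT and 9 of 14 other genes tested. The median log2 fold change over the 40 genes was -0.93 without the block, against 0.01 over all genes, and 32 of the 40 had a negative value. In bulk RNA, fewer cells of a type and less RNA per cell cannot be told apart.

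The count without the block moved with single libraries. It was 2, 16, 1 and 5 without control replicates 1, 2, 3 and 4, and 4, 1, 2 and 4 without LDHi replicates 1, 2, 3 and 4. It was 6 without LDHi+lactate replicate 1 or 4. With the block it was 16, 21, 11 and 13 without replicates 1, 2, 3 and 4, and 9 genes were called in each of these 4 fits, namely Col2a1, Col8a1, Col9a1, Col9a3, Col11a1, Col13a1, Col23a1, Col24a1 and Col25a1. Every LDHi library was below every control library for 10 of the 40 genes, against 958 of all 17721 genes tested (5.41%). For 1 of the 40, Col27a1, every LDHi library was above every control library, against 755 of all genes (4.26%). In replicates 1 and 2 alone 0 genes were called lower by edgeR and in replicates 3 and 4 alone 3 (Col9a1, Col11a1 and Col26a1), each with 2 libraries per group. Counts over all genes are not given here for the fits with libraries left out or with the sets apart. A loss of collagen calls in them cannot be told from a loss over all genes.

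**Figure D2:**
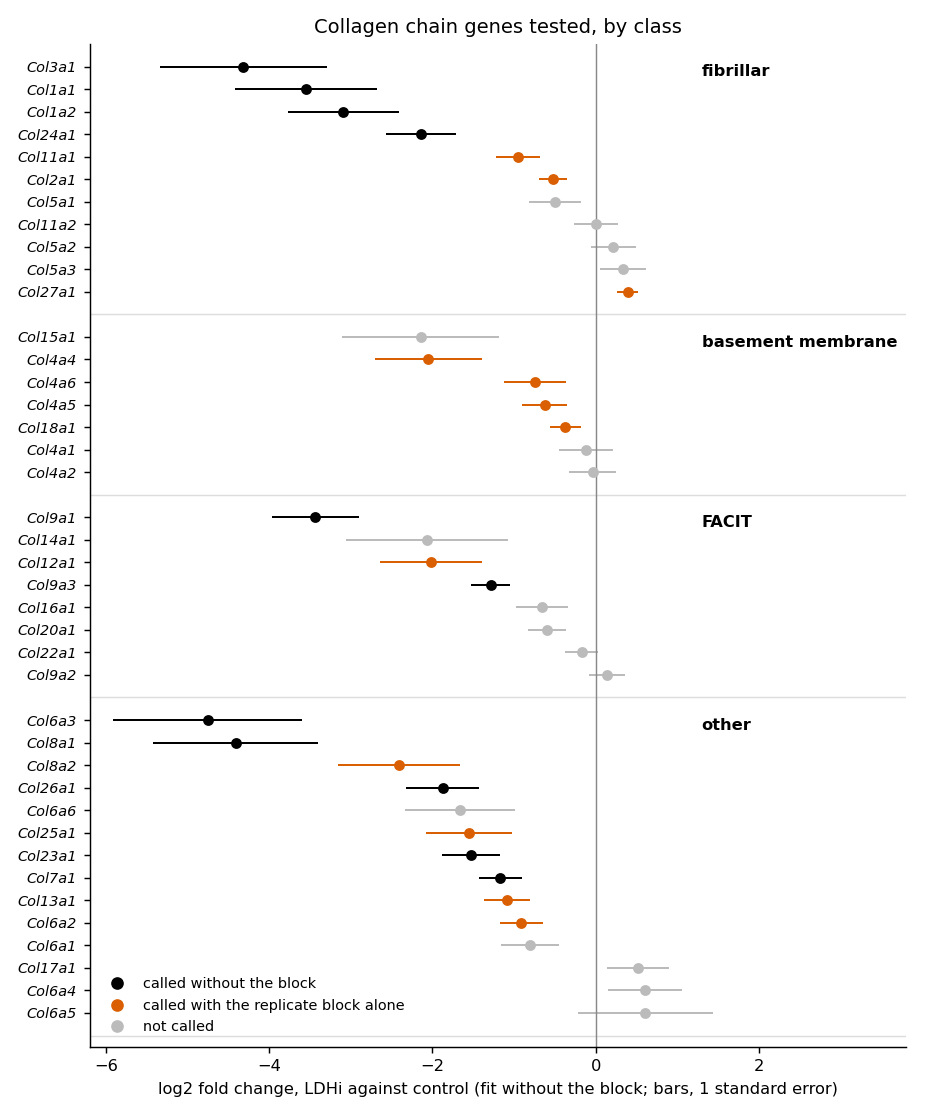
Log2 fold change of the 40 collagen genes tested, LDHi against control, by class (points, fit without the block; bars, 1 SE). Black points mark the 11 genes called without the block and orange points those edgeR called in the fit with the replicate block and not without it; Col6a3 lies lowest at -4.76.

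Type IX collagen changed unevenly among its 3 chains. Col9a1 had 24.3, 5.06, 23.4 and 32.8 CPM in LDHi replicates 1 to 4, against 389, 185, 216 and 131 CPM in control replicates 1 to 4. The groups did not overlap, and LDHi replicate 2 was the lowest of all 12 libraries. The log2 fold change was -3.43 (SE, the standard error, 0.53, adjusted p = 0.0118 from edgeR), lower in 4 of 4 replicates, and the gene was called with each of the 12 libraries left out in turn.

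Col9a3, which encodes the alpha 3 chain, had 1.73, 2.003, 1.93 and 1.57 CPM in LDHi replicates 1 to 4, against 5.08, 2.74, 4.80 and 5.07 CPM in control replicates 1 to 4. It fell by 1.28 on the log2 scale (SE 0.24, adjusted p = 0.0173), a call that was lost when LDHi replicate 2 or control replicate 1 or 3 was left out (adjusted p = 0.0521 to 0.0579). It shares 234 bases of exon with Tcfl5 on the other strand. Col9a2, the alpha 2 chain, had 15.8 to 29.1 CPM in LDHi and 17.2 to 22.3 CPM in control libraries, with overlapping groups and a log2 fold change of 0.14 (SE 0.22, adjusted p = 0.848).

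Per length, Col9a1 was therefore the most abundant chain of the type in control libraries and not in LDHi libraries. The ratio of Col9a1 to Col9a2 was 0.937, 0.144, 0.493 and 0.997 in LDHi replicates 1 to 4, against 13.8, 5.20, 5.91 and 4.64 in control replicates 1 to 4. The log2 ratio was lower by 3.72 in LDHi (log2 difference -3.72), with a two-sided exact permutation p of 0.0286, the smallest that 4 against 4 libraries allow. The adjusted p was 0.206 over the 36 tests of 12 chain ratios in 3 comparisons. It could have been under 0.05 only if most of the 36 tests gave that smallest p. With Col9a2 little changed, the ratio mostly restates the Col9a1 difference and is not separate evidence. The ratio of Col9a1 to Col9a3 was 1.92 to 15.9 in LDHi and 19.6 to 58.2 in control libraries, with the same exact p. Of 6 cartilage markers 4 were tested, and of these only Matn3 fell by edgeR (-1.69, SE 0.35, adjusted p = 0.0249). The list summed to 3.51 to 10.5 CPM in LDHi and 11.7 to 20.2 CPM in control libraries. Acan had at most 2.92 CPM and Chad was under 0.3 CPM in every library. The part of cartilage cells in the result was not tested.

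Pigment epithelium markers were lower in LDHi as well, in part without overlap of the groups. The sum of these markers (Mitf, Pmel, Tyr, Tyrp1 and Dct) was 19.5 to 157.6 CPM in LDHi and 141.8 to 925 CPM in control libraries. Mitf had 10.77 to 21.65 CPM in LDHi and 40.91 to 90.02 CPM in control libraries. Dct had 4.156 to 37.93 CPM in LDHi and 54.85 to 286.3 CPM in control libraries. Mitf and Dct did not overlap between the groups, while Pmel, Tyr, Tyrp1 and the sum did. Among LDHi libraries, replicate 2 was the lowest and replicate 4 the highest for both the sum and Col9a1. Among control libraries, replicate 2 had the lowest sum, while replicate 4 had the lowest Col9a1 and a sum of 653.7 CPM. Mitf and Dct of the 5 fell without the block and all 5 with it. The eye field genes Six6, Rax and Six3 also fell, and markers of pluripotent cells (Klf4, Zfp42 and Nanog higher of 4) summed to 325.1 to 571.7 CPM in LDHi and 130.1 to 267.7 CPM in control libraries. The part of these cells in the result was not tested.

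**Figure D3:**
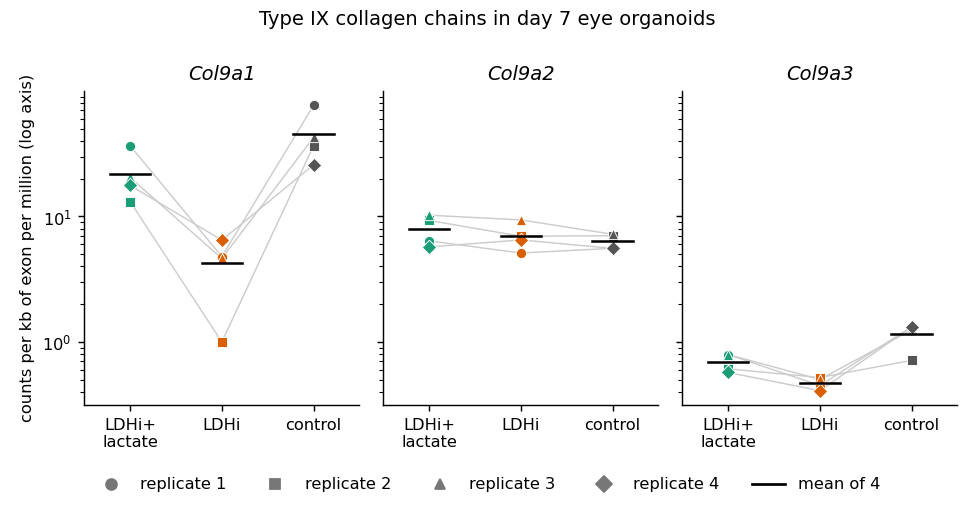
CPM per kilobase of exon (log axis) of the type IX chains Col9a1, Col9a2 and Col9a3 in LDHi+lactate, LDHi and control organoids. Grey lines connect libraries of equal replicate number and black bars are means of 4; Col9a1 averages 22 in LDHi+lactate, 4.22 in LDHi and 45.4 in control, while Col9a2 lies between 5.11 and 10.2 in all 12 libraries.

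The chains of interstitial fibrils had large differences that differed in size between replicates. Col3a1, the type III chain of soft connective tissue, had 4.83, 9.11, 1.24 and 7.14 CPM in LDHi replicates 1 to 4, against 49.99, 19.1, 75.6 and 307.4 CPM in control replicates 1 to 4. The groups did not overlap, and control replicate 4 was the highest library. Its log2 fold change was -4.32 (SE 1.02, adjusted p = 0.0416). Part of its exons, 141 bases, is also annotated as the microRNA gene Gm47302.

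Col1a2, a chain of type I collagen, had 9.75, 6.18, 6.63 and 6.53 CPM in LDHi replicates 1 to 4, against 23.0, 12.5, 38.8 and 174.5 CPM in control replicates 1 to 4. It fell by 3.09 on the log2 scale (SE 0.68, adjusted p = 0.0308), with no overlap of the groups. Col1a1, its partner chain, had 1.73, 1.68, 1.11 and 2.27 CPM in LDHi replicates 1 to 4, against 5.24, 1.66, 11.5 and 61.5 CPM in control replicates 1 to 4. It fell by 3.55 (SE 0.87, adjusted p = 0.048), in 3 of 4 replicates, with control replicate 2 inside the LDHi range.

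Col6a3, the large chain of type VI collagen, was low in all libraries but control replicate 4. It had 0.528, 0.517, 0.276 and 0.691 CPM in LDHi replicates 1 to 4, against 3.65, 0.283, 5.22 and 46.3 CPM in control replicates 1 to 4. The log2 fold change was -4.76 (SE 1.15, adjusted p = 0.0455). The smaller type VI chains Col6a1 and Col6a2 were not called, at -0.80 (SE 0.36, adjusted p = 0.28) for Col6a1 and -0.91 (SE 0.26, adjusted p = 0.0843) for Col6a2, and Col6a2 fell by edgeR with the block (-0.85, SE 0.23, adjusted p = 0.0282) and by DESeq2 without it (adjusted p = 0.0138).

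Without control replicate 4, Col1a2 stayed called, while Col1a1, Col3a1 and Col6a3 did not. The LDHi mean was 1.70 ± 0.474 CPM for Col1a1, 7.27 ± 1.66 CPM for Col1a2, 5.58 ± 3.38 CPM for Col3a1 and 0.503 ± 0.171 CPM for Col6a3 (SD, n = 4), against means of the other 3 control libraries of 6.13 CPM for Col1a1, 24.8 CPM for Col1a2, 48.2 CPM for Col3a1 and 3.05 CPM for Col6a3. Each of the 4 genes lost the call without LDHi replicate 1, 2, 3 or 4 and without control replicate 3, and Col1a1, Col3a1 and Col6a3 also without control replicate 1 or LDHi+lactate replicate 1 or 4 (adjusted p = 0.0514 to 0.139 over all losses, with Col1a1 and Col6a3 lost also without LDHi+lactate replicate 2 or 3). With the block all 4 were called, at adjusted p of 0.0234 for Col1a1, 0.02 for Col1a2, 0.00899 for Col3a1 and 0.0291 for Col6a3, and the blocked calls were lost without replicate 4 for Col3a1, without replicate 3 for Col1a2 and without replicate 1, 3 or 4 for Col1a1, Col6a2 and Col6a3 (adjusted p = 0.051 to 0.129).

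Some mesenchyme markers moved with these chains. Of the 11 markers, 10 were tested and 4 fell (Prrx2, Twist1, Foxc1 and Foxc2), 8 with the block, and none rose. Pdgfra, the most abundant of them, was not called and averaged 104.9 ± 28.7 CPM in LDHi and 96.5 ± 14.9 CPM in control libraries (SD, n = 4 each; adjusted p = 0.832 from edgeR). Twist1, a mesenchymal transcription factor, had 3.89, 3.02, 1.84 and 5.14 CPM in LDHi replicates 1 to 4, against 21.7, 8.86, 39.5 and 94.5 CPM in control replicates 1 to 4. The list summed to 121.7 to 171.8 CPM in LDHi and 188.2 to 435.5 CPM in control libraries, with a highest control sum of 248.3 CPM without control replicate 4. Tcf21 had at most 0.999 CPM. Of the other marker lists, Ets1 of 5 neural crest genes and Kdr of 5 endothelial genes tested fell, Pecam1 and the neuroepithelial gene Sox2 rose, and no lens or surface ectoderm marker was called. No smooth muscle marker was called without the block, and Acta2, Tagln and Cnn1 of 5 fell with it. The part of mesenchymal cells in the collagen result was not tested.

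**Figure D4:**
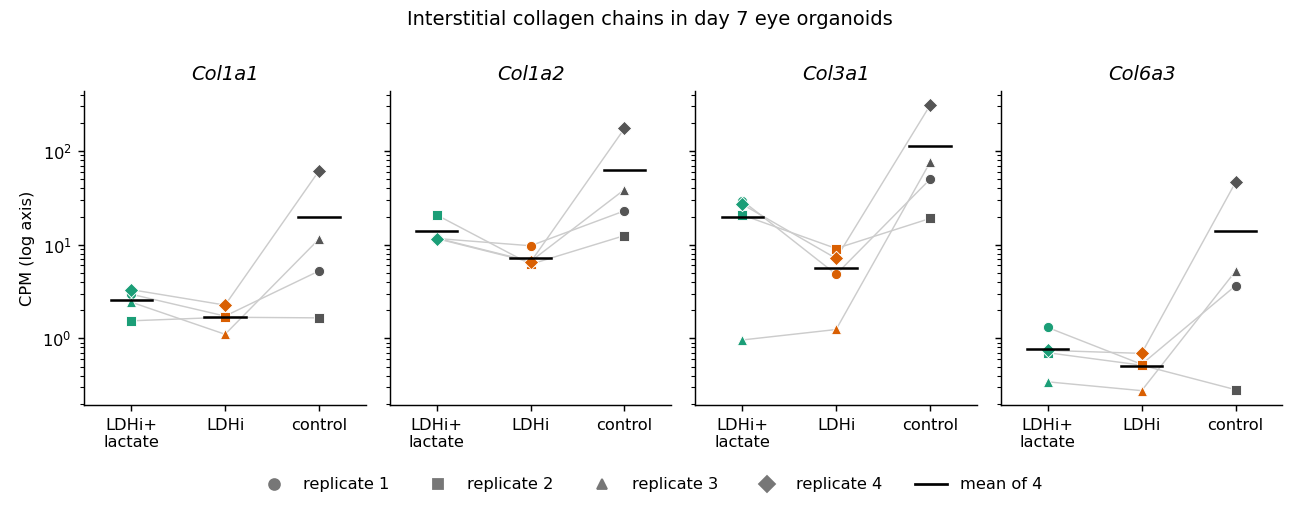
CPM (log axis) of Col1a1, Col1a2, Col3a1 and Col6a3 in LDHi+lactate, LDHi and control organoids, with grey lines joining equal replicate numbers and black bars for means of 4. Control replicate 4 (diamond) is the highest library for all 4 genes, at 61.5, 174.5, 307.4 and 46.3 CPM.

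The fibrillar chains of cartilage and vitreous, Col2a1 and Col11a1, were called by edgeR with the block and not without it. Col2a1, the type II chain, had 150.7, 167.7, 250.2 and 176.7 CPM in LDHi replicates 1 to 4, against 250, 208.4, 305.9 and 309.2 CPM in control replicates 1 to 4. Its log2 fold change was -0.53 (SE 0.17, adjusted p = 0.125), and it fell with the block (-0.54, SE 0.11, adjusted p = 0.0074). Col11a1, a type XI chain that assembles into type II fibrils, had 51.9, 47.7, 80.4 and 78.7 CPM in LDHi replicates 1 to 4, against 133.6, 75.8, 152.9 and 137.1 CPM in control replicates 1 to 4. It missed the threshold without the block (-0.95, SE 0.27, adjusted p = 0.0826) and fell with it (-0.94, SE 0.10, adjusted p = 0.000345), and DESeq2 called it without the block (adjusted p = 0.0172).

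Col24a1, a minor fibrillar chain, had 2.16, 1.29, 1.43 and 3.34 CPM in LDHi replicates 1 to 4, against 12.2, 3.83, 11.1 and 9.02 CPM in control replicates 1 to 4. It fell by 2.14 on the log2 scale (SE 0.43, adjusted p = 0.0217), with no overlap, and the call was lost when LDHi replicate 2 or 3 or control replicate 1 or 3 was left out (adjusted p = 0.0637 to 0.0768). Col27a1, a fibrillar chain of cartilage, was the only collagen gene edgeR called higher, in the fit with the block. It had 23.4, 27.9, 31.2 and 24.0 CPM in LDHi replicates 1 to 4, against 22.8, 20.9, 17.7 and 19.7 CPM in control replicates 1 to 4. Its log2 fold change was 0.38 (SE 0.11, adjusted p = 0.0353), and the call was lost without replicate 2, 3 or 4 (adjusted p = 0.0998 to 0.142). Col5a1, a type V chain that helps to start fibrils, had 54.3 to 87.7 CPM in LDHi and 45.4 to 168.3 CPM in control libraries (log2 fold change -0.50, SE 0.32, adjusted p = 0.507).

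The basement membrane genes held no edgeR call without the block, while DESeq2 without it called Col4a4 lower (adjusted p = 0.0433). Col4a1 had 1338, 1863, 1942 and 1081 CPM in LDHi replicates 1 to 4, against 1566, 2848, 1593 and 745.9 CPM in control replicates 1 to 4. Col4a2 had 772.8, 1045, 1043 and 627.2 CPM in LDHi replicates 1 to 4, against 868.5, 1369, 878.5 and 460.8 CPM in control replicates 1 to 4. For both genes the groups overlapped, 2 of 4 replicates were lower in LDHi, and the log2 fold changes were -0.12 (SE 0.33, adjusted p = 0.925) and -0.04 (SE 0.29, adjusted p = 0.978; 0.02 with the block). The ratio of Col4a1 to Col4a2 per length stayed between 1.44 and 1.85 in all 12 libraries, while Col4a1 itself spanned 745.9 to 2848 CPM. Control replicate 2 was the highest control library and control replicate 4 the lowest for both chains. The summed extraembryonic endoderm markers (Gata4, Gata6, Sox17, Sox7, Dab2, Pth1r, Afp and Ttr) lay between 238.1 and 555.5 CPM in LDHi libraries and between 170.6 and 601.6 CPM in control libraries, with the same control libraries at the ends. None of the 8 was called without the block, and Sox17 was higher with it. The part of such cells in the type IV levels was not tested.

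Col18a1 had 356.0, 394.0, 608.5 and 411.6 CPM in LDHi replicates 1 to 4, against 611.7, 576.8, 664.6 and 439.4 CPM in control replicates 1 to 4. It was not called without the block (-0.37, SE 0.19, adjusted p = 0.358) and fell with it (-0.39, SE 0.10, adjusted p = 0.0187). Col4a5 and Col4a6, neighbouring genes on the X chromosome whose chains form type IV collagen of particular basement membranes, gave -0.57 (SE 0.12, adjusted p = 0.00942) and -0.74 (SE 0.16, adjusted p = 0.00998) with the block. Col4a5 had 44.1 to 70.2 CPM in LDHi and 51.5 to 122.9 CPM in control libraries, and Col4a6 15.2 to 29.1 CPM and 25.1 to 50.9 CPM. Both missed the threshold without the block (adjusted p = 0.266 and 0.365). Col4a4, a chain of the kidney's filtration membrane, was at most 0.184 CPM in LDHi and 0.576 CPM in control libraries. It reached the filter level of 0.298 CPM in 1 LDHi+lactate library, 0 LDHi libraries and 3 control libraries, so it was tested only through the groups in which it was higher. Its blocked call (adjusted p = 0.048) was lost without any 1 replicate number. The blocked calls of Col18a1 were lost without replicate 1 or 2, and those of Col4a5 and Col4a6 without replicate 3 or 4 (adjusted p = 0.0508 to 0.0876).

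Col8a1 had the lowest blocked log2 fold change of the 40 genes. Type VIII collagen forms short-chain networks, as under the corneal endothelium. Col8a1 had 0.672, 0.129, 0.138 and 1.38 CPM in LDHi replicates 1 to 4, against 18.1, 0.936, 13.1 and 16.9 CPM in control replicates 1 to 4. Control replicate 2 lay inside the LDHi range, and was still above LDHi replicate 2. The LDHi values rest on 28, 6, 3 and 36 counts in replicates 1 to 4. Col8a1 reached the filter level in 3 LDHi+lactate, 2 LDHi and 4 control libraries, so the size of its difference is uncertain. The log2 fold change was -4.41 (SE 1.01, adjusted p = 0.0368), and -4.35 with the block (SE 0.39, adjusted p = 0.000169). The call without the block was lost without control replicate 1, 3 or 4, without any LDHi replicate and without LDHi+lactate replicate 1 or 3 (adjusted p = 0.0505 to 0.114), and the blocked call was kept without any 1 replicate number. Col8a2, its partner, had 0.883 to 2.96 CPM in LDHi and 1.07 to 23.8 CPM in control libraries, or up to 8.22 CPM without control replicate 4. It fell by edgeR with the block (-1.95, SE 0.45, adjusted p = 0.0128; without it, adjusted p = 0.109; DESeq2 without it, adjusted p = 0.0315).

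The transmembrane collagens fell in several members. Col23a1 had 9.94, 7.58, 6.54 and 5.22 CPM in LDHi replicates 1 to 4, against 21.7, 12.0, 13.7 and 37.4 CPM in control replicates 1 to 4. It fell by 1.53 on the log2 scale (SE 0.36, adjusted p = 0.0405), with no overlap of the groups. Col13a1, found at cell adhesions and the neuromuscular junction, had 1.68, 2.39, 2.90 and 3.99 CPM in LDHi replicates 1 to 4, against 4.53, 4.81, 6.30 and 7.62 CPM in control replicates 1 to 4. By edgeR it fell with the block (-1.12, SE 0.17, adjusted p = 0.00173; without it, adjusted p = 0.0577), and DESeq2 called it without the block (adjusted p = 0.00297). Col25a1, a neuronal transmembrane collagen, had 1.61 to 8.02 CPM in LDHi and 4.27 to 18.9 CPM in control libraries and also fell by edgeR with the block (-1.51, SE 0.29, adjusted p = 0.00557; without it, adjusted p = 0.145; DESeq2 without it, adjusted p = 0.0297). Col17a1, of the same group and known from hemidesmosomes of skin, was at 0.52 (SE 0.38, adjusted p = 0.582).

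Col26a1, a collagen with an EMI domain, had 14.0, 14.0, 5.29 and 7.14 CPM in LDHi replicates 1 to 4, against 28.5, 21.95, 35.9 and 62.9 CPM in control replicates 1 to 4. It fell by 1.88 (SE 0.45, adjusted p = 0.0433), with no overlap. Col7a1, which builds the anchoring fibrils below epithelia, had 2.93, 2.95, 2.99 and 3.57 CPM in LDHi replicates 1 to 4, against 9.81, 5.10, 7.14 and 5.88 CPM in control replicates 1 to 4. It fell by 1.17 (SE 0.27, adjusted p = 0.0362), with no overlap. The calls without the block were lost when LDHi replicate 2, 3 or 4 or control replicate 1 or 3 was left out for these 2 genes and Col23a1, without LDHi replicate 1 for Col26a1 and Col7a1, without control replicate 4 for Col26a1 and Col23a1, and without LDHi+lactate replicate 4 for both of these and replicate 1 for Col26a1 (adjusted p = 0.054 to 0.118). Col12a1, a FACIT chain of type I fibrils, had 1.61 to 5.07 CPM in LDHi and 4.14 to 27.3 CPM in control libraries, or up to 10.8 CPM without control replicate 4. It fell by edgeR with the block (-1.84, SE 0.43, adjusted p = 0.0144; without it, adjusted p = 0.111; DESeq2 without it, adjusted p = 0.0098). Its blocked call and that of Col8a2 were lost without replicate 3 or 4 (adjusted p = 0.0589 to 0.0858).

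**Figure D5:**
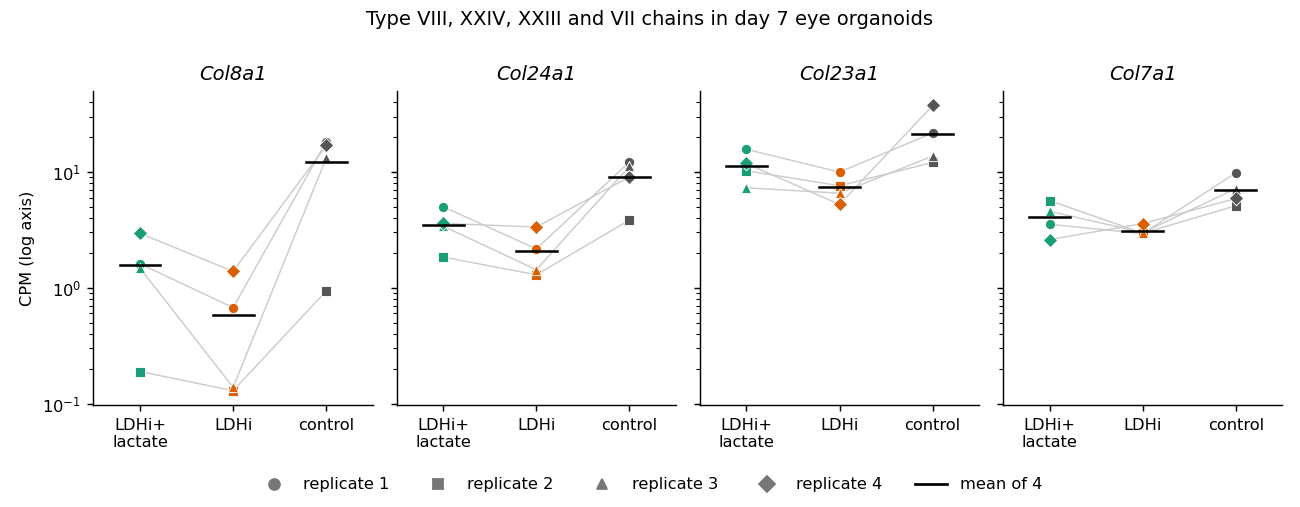
CPM (log axis) of Col8a1, Col24a1, Col23a1 and Col7a1 in LDHi+lactate, LDHi and control organoids, with grey lines joining equal replicate numbers and black bars for means of 4. The control libraries lie above all LDHi libraries except for Col8a1, where control replicate 2 (square) is at 0.936 CPM.

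The remaining 15 genes gave no edgeR call in any of the 3 comparisons with or without the block. Of these, 11 were tested, and without the block their log2 fold changes for LDHi lay between -2.15 and 0.61 with adjusted p of at least 0.211. With the block Col6a5 was at 1.141, and the smallest adjusted p were 0.0731 for Col20a1 and 0.0819 for Col16a1. Col20a1 was called lower by DESeq2 with the block. Col5a2, Col11a2, Col20a1, Col16a1 and Col5a3 were the more abundant of them. Col10a1, Col19a1, Col28a1 and Col4a3 did not pass the filter, with 26 to 63 counts over the 12 libraries and at most 0.581 CPM. Col22a1, a chain of tissue junctions that is among the most abundant FACIT genes, had 9.44 to 14.7 CPM in LDHi and 9.67 to 15.6 CPM in control libraries (adjusted p = 0.776).

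Proteins that modify and crosslink collagen were looked at as a list of 32 genes, all tested. In LDHi against control 6 fell and 0 rose, and with the block 9 fell and 1 rose, beside the shares of all genes given above. Pxdn, peroxidasin, which crosslinks type IV collagen, had 177.3, 196.0, 196.0 and 185.7 CPM in LDHi replicates 1 to 4, against 343.9, 309.9, 356.3 and 292.1 CPM in control replicates 1 to 4. It fell by 0.79 on the log2 scale (SE 0.09, adjusted p = 0.00474) while Col4a1 and Col4a2 were not called. Loxl1 and Loxl3, lysyl oxidase family crosslinkers, fell by 1.27 (adjusted p = 0.0137) and 1.26 (adjusted p = 0.0199), and Colgalt2, which adds galactose to hydroxylysine, by 2.12 (log2 fold change -2.12, adjusted p = 0.0137). The list summed to 3177 to 4757 CPM in LDHi and 3245 to 5773 CPM in control libraries, and its median log2 fold change was -0.14.

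The comparison of LDHi+lactate with LDHi asked which of these genes differed when lactate was given with the inhibitor. Without the block edgeR called 0 of the 40 genes lower and 0 higher, as in all genes (0.00% in either direction). At an unadjusted p under 0.05 were 4 of the 40, all higher, against 603 of all 17721 in either direction. DESeq2 called 1 higher, Col9a1, against 0.303% of all genes. With the block 1 gene rose, Col9a1, and 0 fell, against 0.570% and 0.0677% of all genes. The median log2 fold change over the 40 genes was 0.34, against -0.01 over all genes, and 29 were positive. All LDHi+lactate libraries lay above all LDHi libraries for 4 of the 40 genes, Col1a2, Col6a2, Col9a1 and Col9a3, against 268 of all 17721 genes (1.51%).

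Col9a1 had 185.5, 66.6, 104 and 89.6 CPM in LDHi+lactate replicates 1 to 4, against 24.3, 5.06, 23.4 and 32.8 CPM in LDHi replicates 1 to 4. Its log2 fold change was 2.42 with the block (SE 0.38, adjusted p = 0.0248, higher in 4 of 4 replicates) and 2.39 without it (SE 0.51, adjusted p = 0.502). The blocked call was lost without replicate 1, 2 or 3 (adjusted p = 0.0636 to 0.188). The ratio of Col9a1 to Col9a2 was 5.73, 1.42, 1.998 and 3.09 in LDHi+lactate replicates 1 to 4, above all LDHi ratios (log2 difference 2.39, two-sided exact permutation p = 0.0286, 0.206 adjusted over 36 tests). Col9a3 had 3.05, 2.35, 3.05 and 2.20 CPM in LDHi+lactate libraries (0.53 with the block, SE 0.22, adjusted p = 0.383). Pigment epithelium markers summed to 69.1 to 439.5 CPM in LDHi+lactate and 19.5 to 157.6 CPM in LDHi libraries, and 4 of the 5 rose with the block. Their part in the Col9a1 result was not tested.

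Col4a1 and Col4a2 were higher with lactate in 4 of 4 replicates but were not called. Col4a1 had 2332, 2654, 2745 and 1554 CPM in LDHi+lactate replicates 1 to 4, against 1338, 1863, 1942 and 1081 CPM in LDHi (0.58 with the block, SE 0.16, adjusted p = 0.19). Col4a2 had 1277, 1403, 1511 and 805.8 CPM in LDHi+lactate, against 772.8, 1045, 1043 and 627.2 CPM in LDHi (0.51 with the block, SE 0.13, adjusted p = 0.124). Pxdn rose with the block (0.44, SE 0.06, adjusted p = 0.0142), as the only gene of the processing list called in this comparison. Col3a1 had 29.6, 20.8, 0.961 and 27.0 CPM in LDHi+lactate replicates 1 to 4, with replicate 3 below all LDHi libraries (1.66 with the block, SE 0.81, adjusted p = 0.477).

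LDHi+lactate organoids were then set against control organoids, a comparison that shares the LDHi+lactate libraries with the previous one and the control libraries with the first. Without the block edgeR called 0 of the 40 genes lower and 0 higher, as in all genes (0.00%). At an unadjusted p under 0.05 were 14 of the 40, all lower, against 1653 of all 17721 in either direction. DESeq2 called 3 lower, Col1a1, Col6a3 and Col24a1, against 0.660% of all genes. Col1a1 had 1.54 to 3.31 CPM in LDHi+lactate libraries and Col6a3 0.343 to 1.31 CPM. In control replicate 2 they had 1.66 and 0.283 CPM. Their control means were 19.97 and 13.87 CPM, and 6.13 and 3.05 CPM without control replicate 4. DESeq2 was not run without that library. With the block 7 fell and 1 rose, against 3.87% and 4.18% of all genes. Those that fell were Col2a1, Col11a1, Col24a1, Col4a5, Col4a6, Col8a1 and Col8a2. The median over the 40 genes was -0.65 without the block, against 0.00 over all genes, and 33 were negative. Every LDHi+lactate library was below every control library for 1 of the 40 genes, Col2a1, against 374 of all 17721 genes (2.11%). The count of 7 was 1, 11, 2 and 3 without replicates 1, 2, 3 and 4.

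Col8a1 had 1.61, 0.189, 1.48 and 2.94 CPM in LDHi+lactate replicates 1 to 4, against 18.1, 0.936, 13.1 and 16.9 CPM in control replicates 1 to 4. It fell by 2.96 with the block (SE 0.35, adjusted p = 0.00547), a call kept without any 1 replicate number. Col2a1 had 151.8, 199.3, 204.0 and 188.1 CPM in LDHi+lactate replicates 1 to 4, against 250, 208.4, 305.9 and 309.2 CPM in control (-0.52 with the block, SE 0.11, adjusted p = 0.0236). Col11a1 and Col24a1 had blocked log2 fold changes of -0.54 (SE 0.10, adjusted p = 0.0149) and -1.36 (SE 0.24, adjusted p = 0.0127), with 53.5 to 112.9 CPM and 1.84 to 4.99 CPM in LDHi+lactate and 75.8 to 152.9 CPM and 3.83 to 12.2 CPM in control libraries. Col4a2 was the gene called higher (0.53, SE 0.13, adjusted p = 0.0328), and Col4a1 had 0.56 (SE 0.17, adjusted p = 0.0637). Col9a1 was at -1.10 (SE 0.35, adjusted p = 0.0778). Of these blocked calls that of Col11a1 was lost without replicate 1 or 3, that of Col24a1 without replicate 1, and those of Col2a1 and Col4a2, as of Col4a5, Col4a6 and Col8a2, without replicate 1, 3 or 4 (adjusted p = 0.0531 to 0.211).

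Levels of some collagen genes, as of many other genes, differed between replicates 3 and 4 and replicates 1 and 2, with treatment in the model. Of the 40 genes 7 were higher in replicates 3 and 4 (17.5%) and 0 lower, against 13.7% and 14.3% of all genes, with 1 collagen gene at an unadjusted p under 0.05 in the lower direction and 1 called lower by DESeq2. Those higher were Col2a1, Col11a1, Col16a1, Col17a1, Col4a5, Col4a6 and Col8a2. Col4a6 differed by 0.96 (SE 0.15, adjusted p = 0.0011) and Col4a5 by 0.64 (SE 0.13, adjusted p = 0.00402). The number was 4 without control replicate 1 or 3, LDHi replicate 2 or LDHi+lactate replicate 1. A different effect of LDHi in the 2 sets was called by edgeR for 0 of the 40 genes (smallest adjusted p = 0.89), and for 0 of all 17721. At an unadjusted p under 0.05 were 8 of the 40, against 694 of all 17721. For LDHi+lactate against LDHi such an effect was called for 0, with 2 of the 40 under 0.05 unadjusted, against 239 of all genes. For LDHi+lactate against control it was called for 0, with 7 of the 40, against 306 of all genes. Over all genes 0 were called in both, and no other tool was run for these. The set coincides with the cell type in the labels and with depth, so these cannot be told apart.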

How the data were processed

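RNA of 12 libraries was measured with 50 base single reads. For each library the authors deposited raw read counts per gene, with no normalization. Per the labels, mm10 was used with HTSeq 0.6.1p1, STAR, cutadapt 1.13 and DESeq2 1.14.1. Strand setting and annotation release: not given in the sources used here. Gene IDs were matched to GENCODE vM21 (54079 of 54232). The collagen genes, their classes and all lists were chosen with earlier results of these data known.

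Counts were fitted with edgeR 4.0.16 (R 4.3.3; TMM, filterByExpr with the group, 17721 genes, quasi-likelihood, all 12 libraries, treatment only), and genes were called where the Benjamini-Hochberg adjusted p was below 0.05. The filter asked for 0.298 CPM, or 10 counts at the median depth, in 4 libraries. Levels per length used the union of exons. Where nothing else says that libraries came from separate cultures, p-values measure only the spread between libraries. Chi-square tests over genes, run between libraries of the same group, found none deposited again under another number. Libraries of different groups were not compared in this way.

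The groups share replicate numbers. Same-numbered libraries of the groups deviated together from their group means (correlation across genes 0.329 to 0.634, 12 pairs, against -0.22 to 0.197 for other numbers of the same set), so the numbers were taken to pair the libraries. This pairing is read from the data, and the blocked value stands beside a result where it changed the call.

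Named genes were the collagens called in any comparison with or without the block and the 3 most abundant per length in each class, and of other lists up to 4 called genes with the smallest adjusted p. The alternatives were DESeq2 1.42.0, RLE size factors, the filter left out or set to 10 counts per library, only the groups compared, the block, a term for the set, the sets fitted apart, single libraries or numbers left out, and a minimum log2 fold change of 1. The edgeR steps were tested on simulated data. Windows before gene starts came from RefSeq (GRCm38.p6). Per-library shares and ratios carry counting error and the spread between libraries, and means compared between groups carry the SD of 4 libraries.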

Additional observations from a re-analysis of the deposited data

Results flagged for a closer look

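In 8 of the 87 groups of 4 libraries examined for the named collagen genes, 1 library lay apart from the other 3 by more than Dixon's 95% critical value. Chance marks about 1 in 20 such groups, or 4.35 of 87. Of the 8, 3 were the highest control library, each time replicate 4: Col1a1 at 61.49 CPM, Col1a2 at 174.5 CPM and Col6a3 at 46.32 CPM. Col1a2 also stood high in LDHi+lactate replicate 2, at 20.79 CPM, and in LDHi replicate 1, at 9.749 CPM. Col8a2 was high in LDHi+lactate replicate 4 (3.854 CPM) and Col7a1 in LDHi replicate 4 (3.57 CPM). Col9a3 was low in control replicate 2, at 2.743 CPM.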

How the results depend on the processing

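For LDHi against control, the 11 collagen genes lower without the block became 22 with the replicate block, 18 with DESeq2, 5 with the groups compared only, 0 in replicates 1 and 2 alone and 3 in replicates 3 and 4 alone, and 1 to 16 with 1 library left out. With the block the number was 11 to 21 with 1 replicate number left out, and the number higher, 0 without the block and 1 with it, was 0 to 1. For LDHi+lactate against LDHi, the number higher was 1 with the replicate block and 1 with DESeq2, and with the block it was 7 without the low-count filter, 5 with DESeq2 and 0 to 1 with 1 number left out. For LDHi+lactate against control, 7 were lower with the replicate block and 3 with DESeq2, and with the block 20 without the filter, 16 with DESeq2 and 1 to 11 with 1 number left out. There 1 was higher with the block, 2 without the filter and 0 to 2 with 1 number left out. Between replicates 3 and 4 and replicates 1 and 2, the number lower was 4 without the filter, 1 with DESeq2 and 0 to 1 with 1 library left out, and the number higher 4 to 7. Settings that combine the block with another choice were added after seeing the data. Counts over all genes are not given here for the fits with libraries or numbers left out or with the sets apart.

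Among the genes named by the rule, the uncalled log2 fold changes of 5 in LDHi against control changed sign. Col22a1 was at 0.20 in replicates 1 and 2 alone and -0.31 to 0.021 with 1 library or number left out. Col4a1 was at 0.35 in replicates 3 and 4 alone and -0.37 to 0.25 with 1 left out. Col4a2 was at 0.02 with the replicate block, also with RLE size factors (0.022), without the filter (0.024) and with DESeq2 (0.022), at 0.026 with 10 counts in every library, 0.0011 with the set as a term, 0.30 in replicates 3 and 4 alone and -0.25 to 0.24 with 1 left out. Col5a1 was at 0.18 and Col9a2 at -0.061 in replicates 1 and 2 alone, and Col9a2 at -0.035 to 0.26 with 1 left out. The causes were not tested.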
